A study of Mus musculus with 24 samples.

Results

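The genes described here encode the proteasome of the mouse colon: its core particle, its regulatory particle, the chaperones that assemble both, and one inhibitor. Members were all probe sets annotated to a single gene whose symbol starts with Psma, Psmb, Psmc, Psmd, Psmf or Psmg, leaving out the interferon-induced catalytic subunits Psmb8, Psmb9 and Psmb10. They came to 91 of 45137 probe sets and 42 of 18194 genes. Of these probe sets, 74 lie on the 430A array and 17 on the 430B array. The members divide into 14 genes of the core particle (Psma1 to Psma7 and Psmb1 to Psmb7), 17 of the regulatory particle (Psmc1 to Psmc6 and 11 Psmd genes), 7 assembly chaperones (Psmd5, Psmd9, Psmd10 and Psmg1 to Psmg4), the inhibitor Psmf1 and 3 genes whose symbols fit but which are no part of the common proteasome. These last are Psma8, a testis subunit, Psmb11, a thymus subunit, and Psmc3ip, a partner of meiotic recombination.

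The proteasome degrades proteins that carry ubiquitin chains. Its core particle is a barrel of stacked rings in which the α subunits form the gate and the β subunits Psmb5, Psmb6 and Psmb7 cut the substrate. The regulatory particle caps the barrel: its base, with a ring of Psmc ATPases, unfolds and threads the substrate, and its lid, with the deubiquitinase Psmd14, removes the ubiquitin. When proteasomes are inhibited, the transcription factor Nfe2l1 is known to raise the subunit genes together through antioxidant response elements, and cells exposed to interferon are known to exchange the catalytic subunits for Psmb8, Psmb9 and Psmb10.

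Total RNA from whole colon of BALB/c mice, an inbred strain, was measured in 12 samples with a pair of Affymetrix arrays per sample, 430A and 430B. Mice of 6 to 8 weeks ate a standard diet or one with 2% curcumin, the yellow polyphenol of turmeric, from 2 days before an enema on day 0, and were killed on day 7. The enema was a control solution or TNBS (trinitrobenzene sulfonic acid), a hapten that causes colitis. Diet and enema cross into 4 groups of 3 samples: standard diet with control enema, standard diet with TNBS, curcumin diet with control enema, and curcumin diet with TNBS. The labels give no mutation, transgene or other agent, and the design asks how the curcumin diet alters colonic expression in this model. The labels describe pools of RNA from 3 mice. They do not say if each sample is a pool of its own, so spreads and p-values measure these samples and may be technical.

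Signals are linear intensities, and differences are of log2(signal + 16), which understates the change of dim probe sets. Precision rests on the number of arrays. The first principal component of the 430A arrays, with 32% of the variance, parted them into 2 array sets of 6 that the labels do not name. Set 1 holds 1 of 3 arrays of the standard diet with control enema, 2 of the standard diet with TNBS, 2 of the curcumin diet with control enema and 1 of the curcumin diet with TNBS. On 430B, curcumin-diet TNBS replicates 2 and 3 stood apart from the other arrays. Results are therefore also given from a set-adjusted fit, which adds a term for the array set to the 430A model and drops these arrays from the 430B model. All 9 measured markers of colonic epithelium were above 0, and their summed signal ran from 59923 to 75713. The summed signal of 7 neutrophil markers was 892 to 1025 on the standard diet with control enema and 4227 to 8126 with TNBS, and 652 to 1442 on the curcumin diet with TNBS. That of 7 macrophage markers was 5177 to 6137, 8098 to 8687 and 5912 to 6824 in the same groups. The summed signal of 10 genes of pancreatic acinar cells ran from 3108 to 125423 over the 12 samples. Its group medians were 92256 with control enema and 100124 with TNBS on the standard diet, and 3245 and 20978 on curcumin, so it varied with diet as well as inside groups, whose ranges overlap. With TNBS on the standard diet, fibroblast markers were also higher (22993 to 32057, against 19217 to 20919), and adipocyte markers (2832 to 6876, against 7553 to 8053) and B and plasma cell markers (8251 to 9712, against 10041 to 11949) lower, each without overlap. Of the 7 neutrophil markers 4 passed the filter on low signals described below, as did 3 of the 4 adipocyte markers measured, so these sums include dim probe sets. No marker of these lists was at 0, and their part in the results was not tested. In such whole-tissue RNA, fewer cells of a type and less RNA per cell cannot be told apart.

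RefSeq promoter windows on GRCm38.p6, from 250 bases before to 50 after the annotated start, were given for 34 of the 42 genes (36 windows). The antioxidant response element core, TGACNNNGC read on both strands, was in 5 of the 36 (13.9%) and in 12.4% of all 32851 windows. It lay at Psmb5, Psmb6, Psmc6, Psmd9 and Psmd12. The CCAAT box, CCAAT on both strands, was in 36.1% of the member windows and in 37.4% of all. The shares in members are thus near those of all windows, and a match is a description of letters only. Shown as examples are the 250 bases before the start of 4 genes described below: the catalytic subunits Psmb5 and Psmb6, the ATPase Psmc6 and the α subunit Psma7. All are written 5′ to 3′ on the strand of the gene, with matches to either motif in capitals. Psmb5 is at chr14:54617996-54618245 on the minus strand, Psmb6 at chr11:70525107-70525356 on the plus strand, Psmc6 at chr14:45329574-45329823 on the plus strand, and Psma7 at chr2:180042465-180042714 on the minus strand. The capitals mark an antioxidant response element core in the first 3 and a CCAAT box in Psma7. All 4 windows shown hold a match, so they do not stand for the members as a whole. The window of the ATPase Psmc5, for example, holds neither motif.
Psmb5: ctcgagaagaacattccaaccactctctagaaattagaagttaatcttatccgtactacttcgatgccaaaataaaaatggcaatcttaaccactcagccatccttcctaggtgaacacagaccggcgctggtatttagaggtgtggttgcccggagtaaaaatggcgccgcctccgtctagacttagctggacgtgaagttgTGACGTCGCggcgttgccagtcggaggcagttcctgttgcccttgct
Psmb6: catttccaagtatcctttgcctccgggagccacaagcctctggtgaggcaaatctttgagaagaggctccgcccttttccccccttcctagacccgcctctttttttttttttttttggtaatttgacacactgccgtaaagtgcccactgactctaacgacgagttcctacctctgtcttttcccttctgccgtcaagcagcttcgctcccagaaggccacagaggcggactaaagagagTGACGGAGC
Psmc6: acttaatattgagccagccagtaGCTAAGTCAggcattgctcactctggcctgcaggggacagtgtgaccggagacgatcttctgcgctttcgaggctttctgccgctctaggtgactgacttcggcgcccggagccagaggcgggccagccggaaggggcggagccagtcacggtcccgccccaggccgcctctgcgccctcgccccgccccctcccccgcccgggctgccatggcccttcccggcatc
Psma7: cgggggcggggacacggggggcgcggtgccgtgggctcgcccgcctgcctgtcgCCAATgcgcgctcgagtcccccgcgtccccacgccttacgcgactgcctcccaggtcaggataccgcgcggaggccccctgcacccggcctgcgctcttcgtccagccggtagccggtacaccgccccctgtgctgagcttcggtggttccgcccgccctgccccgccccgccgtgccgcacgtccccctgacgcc
The match begins 47 bases before the start in Psmb5, 9 before it in Psmb6 and 227 before it in Psmc6, where it lies on the other strand.

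Of the 91 probe sets, 68 passed the filter on low signals (58 on 430A and 10 on 430B), and 23 did not. They cover 39 genes, each of which is represented below by its brightest tested probe set, on 430A in every case. Of these genes 21 had more than 1 tested probe set, and values of their other probe sets are given for some only. Psma8, Psmb11 and Psmc3ip had no tested probe set. Psma8 gave signals of 8.5 to 83, and Psmb11 of 50.6 to 239.5. The representatives of the core particle lay between the 88th and the 97.9th percentile of all 430A probe sets by mean log2 signal, with a median percentile of 93.2. Those of the regulatory particle ran from 69.3 to 96.5 (median 88.7), and those of the chaperones from 50.8 to 80.2 (median 61.8). Probe sets bind unequally, so these ranks describe signals and not transcript numbers.

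The representative probe sets varied little. In 35 of the 39 the highest of the 12 signals was under 2 times the lowest, as it was in 65.4% of all tested 430A probe sets. The most even was that of the ATPase Psmc2, whose 12 signals ran from 1376 to 1658, a ratio of 1.21. A second 430A probe set of Psmc2 had a ratio of 1.94. The exceptions were the β subunit Psmb1 (ratio 2.17), the ATPase Psmc5 (2.77) and the chaperones Psmg3 (2.10) and Psmg4 (2.62). The median within-group SD was 0.188 on the log2 scale over the 39 representatives and 0.242 over all tested 430A probe sets. That comparison was not matched for brightness, and the representatives had a median percentile of 89.1. Some other tested 430A probe sets of these genes varied more, as in Psma6 (ratio 4.44), Psmd9 (2.94), Psmc4 (2.92) and Psmb4 (2.46). Others stayed under 2, among them a further one of Psma6 (1.35).

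**Figure D1:**
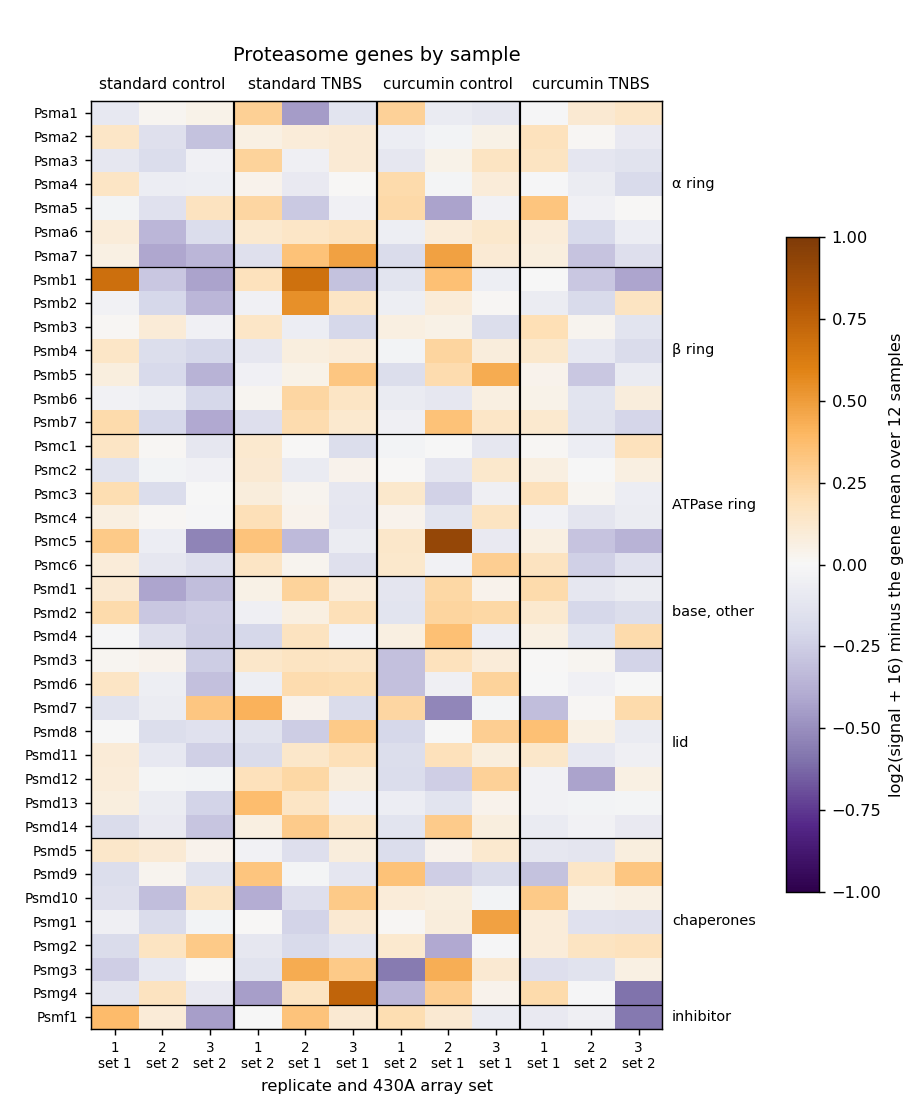
Signals of 39 proteasome genes (rows, by role) in 12 samples (columns, 3 per diet and enema group). Colour is log2(signal + 16) on 430A minus the gene's mean over the 12 samples. Most cells lie within 0.5 of the mean, and for many genes replicates of 1 group differ as much as the groups do.

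TNBS against control enema on the standard diet asks how colitis alters the proteasome genes. None of the 68 member probe sets passed an adjusted p under 0.05 in limma (over all probe sets, 0.00739% did), and 9 had an unadjusted p under 0.05, or 13.2%, against 7.27% of all. The array types differ: on 430A 5 of 58 members had one (8.62%, against 9.32% of all there), and on 430B 4 of 10 (against 5.21% of all). Those on 430B were Psma1, Psmb5 and Psmc5, whose probe sets 430A carries too, and a probe set of Psma3. On 430A, with most of the members, the share was thus near the background. Of the 9, 7 were higher and 2 lower with TNBS. Among the 31 core and regulatory genes, 25 had a positive difference, with a median of 0.15, while the median over all 12911 genes was -0.01. All 31 of their 95% intervals lay inside a change of 2-fold in either direction. The 3 samples of a group did not overlap in 7 probe sets that were higher with TNBS (10.3%, against 6.9% of all) and in 2 that were lower (2.94%, against 7.56%). On 430A alone these were 4 and 1 of 58, where 7.01% and 7.65% of all did not overlap.

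The core particle had a median difference of 0.19 over its 14 genes, 10 of them positive. Psma7, an α subunit, gave 1239, 889 and 928 with control enema and 1069, 1511 and 1665 with TNBS. The groups overlap through the first control and the first TNBS sample. Its difference of 0.46 ± 0.21 (SE) was the highest of the 39 genes and did not pass (adjusted p = 0.528). A second tested Psma7 probe set differed less, with group means of 760 with control enema and 836 with TNBS, and overlap. The β subunit Psmb2 gave 1309, 1155 and 1050 with control enema and 1297, 1962 and 1485 with TNBS. These also overlap, by 1 sample of each group, and the difference was 0.41 ± 0.16 (adjusted p = 0.424). At the other end, Psma1 differed by -0.09 ± 0.17 and Psmb3 by -0.06 ± 0.13, neither past the threshold. A second tested Psmb3 probe set went the other way, with group means of 799 with control enema and 863 with TNBS.

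The 3 catalytic subunits were each higher on average, and none passed. Psmb6, which cuts after acidic residues, gave 1578, 1560 and 1402 with control enema and 1643, 1925 and 1807 with TNBS. All TNBS samples exceeded all controls, and the difference was 0.24 ± 0.11 (adjusted p = 0.563). Psmb5, the chymotrypsin-like subunit and the target of bortezomib, gave 1980, 1633 and 1459 with control enema and 1824, 1932 and 2357 with TNBS. Its groups overlap, with a difference of 0.27 ± 0.17 (adjusted p = 0.71). Psmb7, the trypsin-like subunit, differed by 0.19 ± 0.17, and its groups overlap as well.

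The regulatory particle had a median difference of 0.12 over 17 genes, 15 of them positive. In the lid the representatives of all 8 genes were positive, with a median of 0.17. Among further tested probe sets of lid genes, 1 of Psmd6 was lower, with group means of 500 with control enema and 485 with TNBS. So was 1 of Psmd13 on 430B (791 and 706), both with overlap, and the others were higher. The highest representative was that of Psmd14, the deubiquitinase that clips ubiquitin from the substrate. It gave 1627, 1737 and 1516 with control enema and 1941, 2280 and 2037 with TNBS. All 3 TNBS samples exceeded all controls, and the difference was 0.35 ± 0.13 (adjusted p = 0.366). It was of the same sign inside both array sets, 0.40 in set 1 and 0.26 in set 2. In the base, the scaffold subunit Psmd1 differed by 0.34 ± 0.16, its companion scaffold Psmd2 by 0.17 ± 0.16, and the ubiquitin receptor Psmd4 by 0.12 ± 0.15. By their representatives the 6 ATPases lay closest to 0, from -0.03 (Psmc1) to 0.09 (Psmc2). Psmc3 was at -0.01, Psmc4 at 0.02, Psmc5 at 0.08 and Psmc6 at 0.07. Some other tested probe sets of these genes differed more. For Psmc2, another on 430A had group means of 1099 with control enema and 1395 with TNBS, with overlap. A Psmc2 probe set on 430B had 464 and 439. Further probe sets of Psmc5 and Psmc6, described below, lay further from 0.

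Among the chaperones, Psmg3 had the highest difference, 0.32 ± 0.24, and Psmg2, a partner of Psmg1 in building the α ring, the lowest of the 39 genes, -0.23 ± 0.17. Psmd5, which holds the ATPases during assembly of the base, differed by -0.13 ± 0.13, Psmd9 by 0.16 and Psmd10 by 0.03. Psmg1 and Psmg4 stood at 0.05 and 0.17, and the inhibitor Psmf1 at 0.14 ± 0.22. None passed the test.

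The median difference was not the same inside both array sets. In the set-adjusted fit the median was 0.10 for the core and 0.07 for the regulatory particle, and 26 of the 31 genes were positive. There, 1 member probe set passed (0.236% over all) and 10 had an unadjusted p under 0.05 (10.5% over all), of which 6 were on 430A (10.3% of members, against 14.4% of all there) and 4 on 430B (against 6.6%). Within set 1, which holds 1 control and 2 TNBS samples, the medians were -0.05 for the core and 0.06 for the regulatory particle, with 16 of 31 genes positive. Within set 2, with 2 control samples and 1 TNBS sample, they were 0.24 and 0.21, with 30 of 31 positive. Without replicate 1 of the standard diet with control enema, the core median was 0.29, and without replicate 3 it was 0.079.

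The member that passed in that fit was a dimmer probe set of Psmc6, an ATPase of the ring, and it was lower with TNBS. It gave 334, 358 and 357 with control enema on the standard diet and 205, 189 and 209 with TNBS. On the curcumin diet it gave 351, 304 and 297 with control enema and 273, 359 and 329 with TNBS, so the 3 samples of the standard diet with TNBS were the lowest of the 12. The difference on the standard diet was -0.75 ± 0.16 (adjusted p = 0.106 in limma), and -0.70 ± 0.13 in the set-adjusted fit, where it passed (adjusted p = 0.0485). It was -0.70 within set 1 and -0.76 within set 2. In the set-adjusted fit with each sample left out in turn, the difference ran from -0.75 to -0.63 and passed in 1 of 12 runs, the one without curcumin-diet control replicate 3 (adjusted p from 0.0267 to 0.301). The call at 0.0485 was thus lost without any of the other 11 samples. The brighter probe set of Psmc6 gave 1380, 1203 and 1159 with control enema and 1449, 1325 and 1167 with TNBS, a difference of 0.07 ± 0.14. The dimmer probe set carries the suffix that Affymetrix gives to sets whose probes can match transcripts of more than one gene, and the platform annotation lists Psmc6 alone for it. Whether it reports another transcript was not tested.

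**Figure D2:**
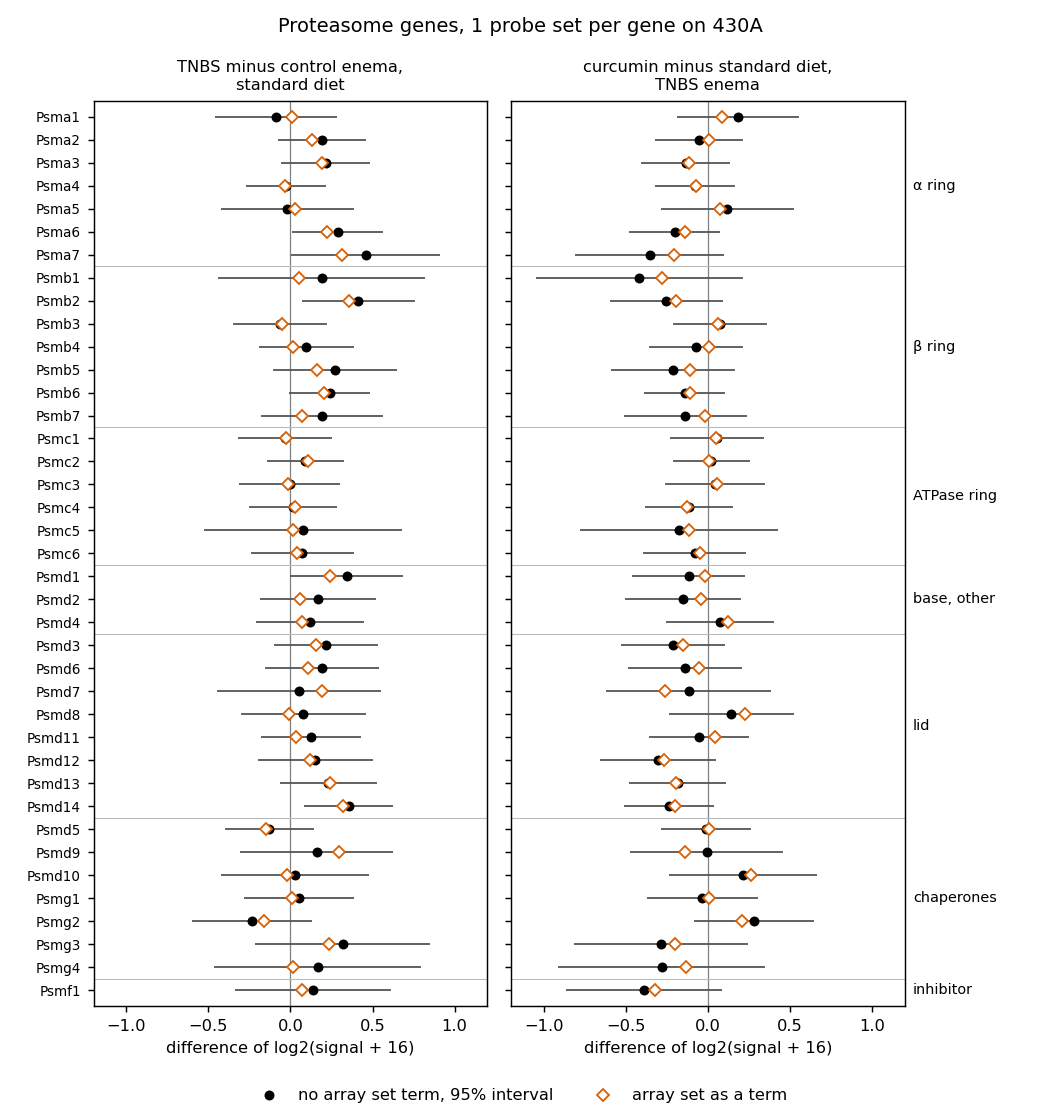
Log2 differences of 39 proteasome genes, ordered by role, for TNBS against control enema on the standard diet (left) and for curcumin against standard diet under TNBS (right). Filled points with bars are unadjusted estimates and 95% intervals, and open diamonds are set-adjusted estimates. Differences of the core and regulatory genes run from -0.09 to 0.46 on the left and from -0.42 to 0.18 on the right, and the diamonds mostly lie nearer to 0.

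TNBS against control enema on the curcumin diet asks the same where curcumin was eaten. None of the 68 probe sets passed (over all, 0.203% did), and 2 had an unadjusted p under 0.05, or 2.94%, against 13.3% of all. By array type these were 0 of 58 on 430A (2.75% over all) and 2 of 10 on 430B (24.0% over all), each near its background. Groups did not overlap in 1 that was higher (7.16% over all) and 3 that were lower (6.53%), of which 0 and 1 were on 430A (3.42% and 3.67% over all). The core median was -0.09 (5 of 14 positive) and the regulatory median -0.04 (7 of 17 positive), against -0.01 over all genes. After adjustment for the array set they were -0.04 and 0.01. Both depend on single samples. Without curcumin-diet TNBS replicate 2 they were -0.030 and 0.024, the core was at -0.17 without replicate 1 of that group, and the regulatory particle at -0.12 without curcumin-diet control replicate 1. The highest genes were Psmg2 (0.24 ± 0.17), Psma5 (0.18 ± 0.19), Psmc3 (0.10 ± 0.14) and Psmd10 (0.09 ± 0.21). Psmc5 gave 885, 1524 and 753 with control enema and 843, 654 and 620 with TNBS. The control sample at 1524 is far above the others, and the difference of -0.51 ± 0.28 did not pass (adjusted p = 1). Psmf1 differed by -0.32 ± 0.22, Psmb1 by -0.29 ± 0.29 and Psmb5 by -0.27 ± 0.17.

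Under the control enema, curcumin against standard diet asks how the food alone acts. Again none of 68 probe sets passed (over all, 0.00369% did), and 1 had an unadjusted p under 0.05, or 1.47%, against 3.61% of all. That was Psma1 on 430B, 1 of 10 there (4.16% over all), with 0 of 58 on 430A (3.06% over all). Groups did not overlap in 6 that were higher on curcumin (8.82%, against 3.68% of all) and in 0 that were lower (4.65% over all). On 430A alone they were 3 and 0 of 58, against 3.12% and 3.73% of all. The core median was 0.12, with 12 of 14 genes positive, and the regulatory median 0.08, with 12 of 17 positive. The set-adjusted medians were 0.11 and 0.03. The highest genes were Psmc5 (0.42 ± 0.28), Psma7 (0.37 ± 0.21), Psmb5 (0.32 ± 0.17) and Psmg1 (0.28 ± 0.16). The lowest were Psmg2 (-0.19 ± 0.17), the lid subunit Psmd7 (-0.14 ± 0.23), Psmd5 (-0.10 ± 0.13) and Psma5 (-0.08 ± 0.19). Without replicate 1 of the standard diet with control enema the core median was 0.25.

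Curcumin against standard diet under TNBS asks whether the diet alters the inflamed colon. It shares the standard-diet TNBS samples with the first comparison, so the values of both stand side by side and neither supports the other. Of the 68 probe sets, 1 passed, lower on curcumin (over all, 0.805% passed), and 4 had an unadjusted p under 0.05, or 5.88%, against 16.9% of all. On 430A 1 of 58 had one (1.72%, against 10.2% of all there), and on 430B 3 of 10 (30.0%, against 23.6%). Groups did not overlap in 2 that were higher (2.94%, against 10.4% of all) and in 8 that were lower (11.8%, against 9.89%). On 430A these were 2 and 6 of 58, against 8.18% and 7.98% of all. None passed in the set-adjusted fit (0.122% over all did), and 2 had an unadjusted p under 0.05 (2.94%, against 10.7% of all): 1 on 430A (15.7% over all) and 1 on 430B (5.55% over all). The core median was -0.14 with 3 of 14 genes positive, and the regulatory median -0.12 with 5 of 17 positive, against -0.0032 over all genes. The set-adjusted values were -0.09 and -0.05. Within set 1 they were -0.01 and -0.009, and within set 2 -0.14 and -0.14. With samples left out, the core median ran from -0.20 (without curcumin-diet TNBS replicate 1) to -0.074 (without replicate 3), and the regulatory median from -0.15 (without replicate 1) to -0.041 (without standard-diet TNBS replicate 1).

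On 430A the lowest genes were Psmb1 (-0.42 ± 0.29), Psmf1 (-0.39 ± 0.22), Psma7 (-0.35 ± 0.21) and the lid subunit Psmd12 (-0.30 ± 0.16). Second tested 430A probe sets differed less between standard diet and curcumin. Their group means were 304 and 294 for Psmb1, 257 and 266 for Psmf1, and 836 and 839 for Psma7. Psmd12 gave 1121, 1166 and 1043 on the standard diet and 959, 727 and 1029 on curcumin, with no overlap. Psmd14 gave 1941, 2280 and 2037 on the standard diet and 1747, 1805 and 1741 on curcumin. All curcumin samples lay below all standard samples, and the difference was -0.24. The highest were Psmg2 (0.28 ± 0.17), Psmd10 (0.22 ± 0.21), Psma1 (0.18 ± 0.17) and the lid subunit Psmd8 (0.14 ± 0.18). The Psmc6 probe set described above was higher on curcumin by 0.62 ± 0.16 (adjusted p = 0.181), without overlap.

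The call belongs to Psmc5 on 430B. Its signals there were 3891, 3240 and 3949 on the standard diet with TNBS and 2595, 1984 and 1701 on curcumin with TNBS, and the groups do not overlap. The difference was -0.83 ± 0.16 (adjusted p = 0.0305 in limma). The curcumin samples at 1984 and 1701 are the arrays that stood apart. Without them the difference was -0.50 ± 0.19 and no longer passed (adjusted p = 0.803), with the remaining curcumin array assumed to vary like the other groups. The call was also lost without either of those arrays (adjusted p = 0.144 and 0.161) and without standard-diet TNBS replicate 1, 2 or 3 (0.0843, 0.0532 and 0.136). It passed in 7 of 12 runs with a sample left out. The 430A array carries the same Psmc5 probe set. There the signals were 1020, 637 and 765 on the standard diet and 843, 654 and 620 on curcumin, a difference of -0.18 ± 0.28.

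Psmb5 and Psma1 are likewise carried by both array types. Psmb5 on 430B gave 7776, 8212 and 9122 on the standard diet with TNBS and 6641, 4765 and 3974 on curcumin with TNBS. The difference was -0.74 ± 0.19 (adjusted p = 0.0608), against -0.21 ± 0.17 on 430A. For TNBS against control enema on the standard diet, neither group holds an outlying array. The SEs and tests still use a spread shared by all groups, outlying arrays included. The 430B differences were 0.45 ± 0.19 for Psmb5, 0.42 ± 0.15 for Psma1 and 0.41 ± 0.16 for Psmc5, none past the threshold. In all 3 the TNBS samples lay above all controls: Psmb5 gave 6482, 5669 and 6194 with control enema, Psma1 3081, 3919 and 3625 against 4664, 4040 and 5605, and Psmc5 2949, 2654 and 2680. The 430A differences of the same probe sets were 0.27, -0.09 and 0.08. Array types were scaled separately, so their signals are not compared with each other.

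**Figure D3:**
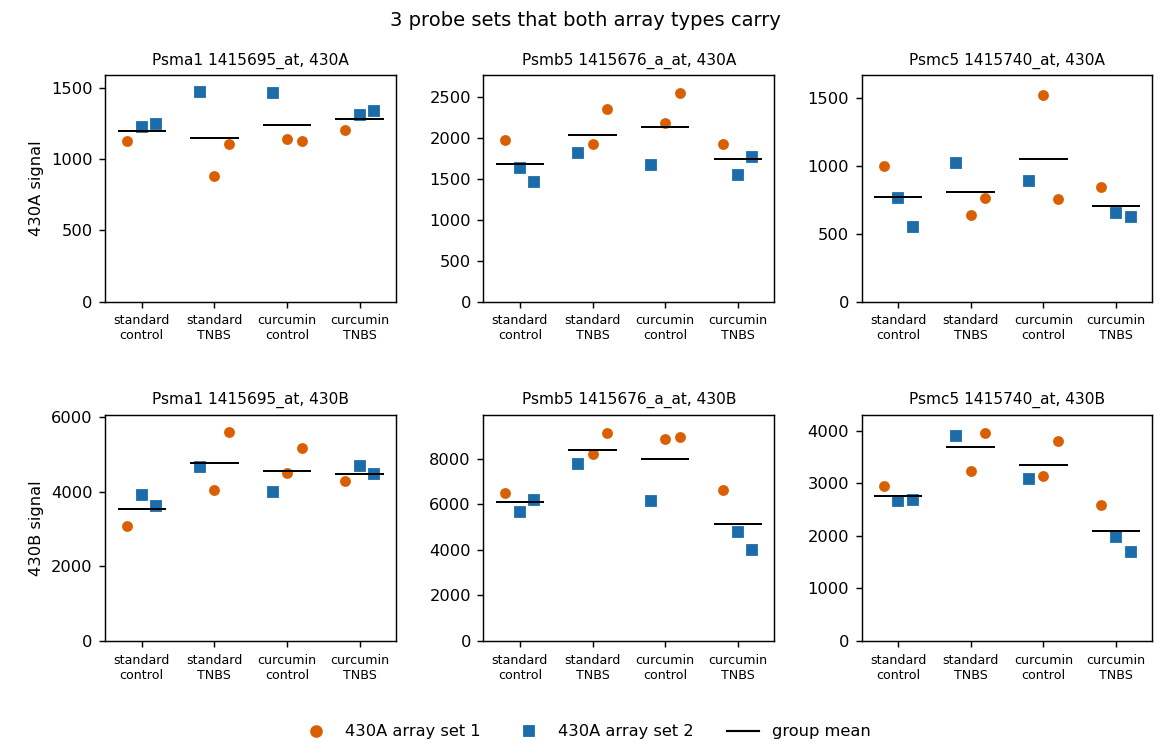
Signals of the 3 probe sets of Psma1, Psmb5 and Psmc5 that both array types carry, on 430A (top) and 430B (bottom), by diet and enema group. Points are samples marked by 430A array set, and lines are group means (n = 3). On 430B, curcumin-diet TNBS replicates 2 and 3 are the lowest of the 12 for Psmb5 and Psmc5.

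The diet by enema interaction tests whether the enema's difference itself depends on diet. None of 68 probe sets passed in limma (over all, 0.0332% did), and 7 had an unadjusted p under 0.05, or 10.3%, against 13.5% of all. They were 5 of 58 on 430A (8.62%, against 9.92% of all there) and 2 of 10 on 430B (20.0%, against 17.1%), near the background on both. The smallest adjusted p was that of Psmc5 on 430B, -1.10 ± 0.23 (adjusted p = 0.0915), with an adjusted p of 0.567 in the set-adjusted fit. The core median was -0.26, with 3 of 14 genes positive, and the regulatory median -0.19, with 4 of 17 positive. They were -0.16 and -0.15 in the set-adjusted fit, within set 1 -0.03 and -0.04, and within set 2 -0.27 and -0.22. The lowest gene was Psma7, at -0.72 ± 0.30 (adjusted p = 0.447). The second tested Psma7 probe set gave 0.11 within set 1 and -0.25 within set 2. Averaged over the diets, the enema gave 0 calls among members (0.0148% over all), and 2 at an unadjusted p under 0.05 (7.22% over all), 1 of 58 on 430A (2.93% over all) and 1 of 10 on 430B (11.5%), and averaged over the enemas, the diet also gave 0 (0.00369% over all), and 2 at an unadjusted p under 0.05 (7.5% over all), 1 on 430A (3.81% over all) and 1 on 430B (11.2%).

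Core and regulatory particle were compared through each sample's median over genes of the log2 value minus the gene's mean. For the core, the standard diet gave 0.068, -0.173 and -0.205 with control enema and 0.050, 0.083 and 0.106 with TNBS. The curcumin diet gave -0.059, 0.071 and 0.076 with control enema and 0.082, -0.120 and -0.109 with TNBS. In every group but the standard diet with TNBS, samples lie on both sides of 0. The 6 samples of array set 1 lay between 0.068 and 0.106, and the 6 of set 2 between -0.205 and 0.050, without overlap. All 4 pairs of groups that differ in 1 factor overlapped. The probe sets of these genes took part in defining the array sets, so the separation of the sets is partly built in. It cannot be weighed against that of the groups.

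The regulatory particle gave 0.086, -0.074 and -0.219 on the standard diet with control enema and 0.109, 0.063 and 0.037 with TNBS. On curcumin it gave -0.070, -0.006 and 0.078 with control enema and 0.056, -0.065 and -0.070 with TNBS. Here the array sets overlap, from -0.006 to 0.086 in set 1 and from -0.219 to 0.109 in set 2. The pooled within-group SD was 0.102 for the core, 0.094 for the regulatory particle and 0.053 for core minus regulatory. That last quantity ran from -0.099 to 0.077, with group means of -0.034, 0.010, 0.029 and -0.023 in the order above. The particles thus were high or low in much the same samples. Each gene was centred on its mean over these 12 samples, so values of core minus regulatory lie around 0 by construction. Its group means were all smaller in size than its SD of 0.053. By array set, the means of core minus regulatory were 0.029 in set 1 and -0.038 in set 2. No other pair of gene lists was compared in this way. No test was made on these scores, since the members were chosen with results of these data known.

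**Figure D4:**
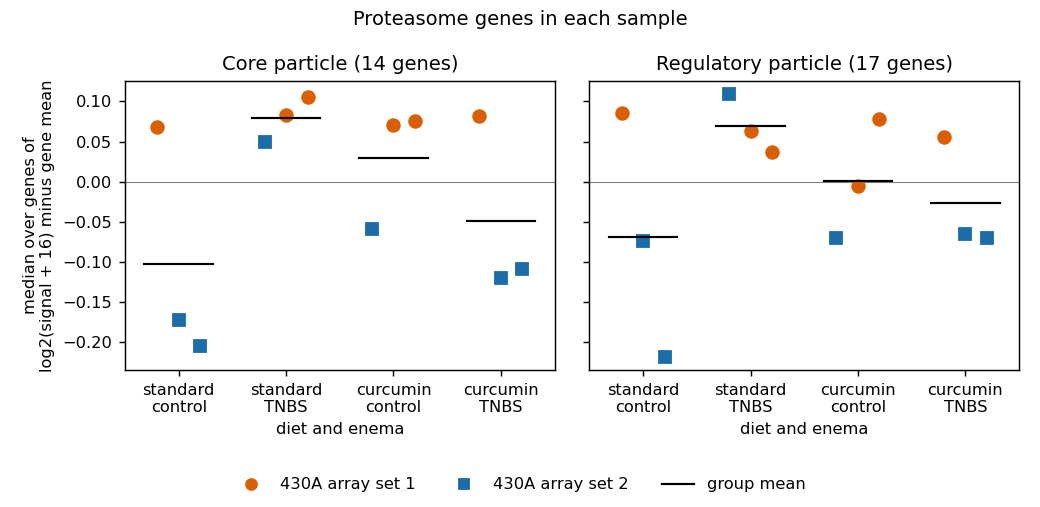
Median over genes of log2(signal + 16) minus the gene mean on 430A, for the core (left) and the regulatory particle (right), per sample and by diet and enema group. Circles and squares mark array sets 1 and 2, and lines are group means (n = 3). Core values of set 1 lie between 0.068 and 0.106, and those of set 2 from -0.205 to 0.050.

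Of the 39 representatives, 30 were higher in array set 1 than in set 2, with a median difference of 0.165, while over all tested 430A probe sets the median was -0.02. Psma7 was furthest, 0.515 higher in set 1. These probe sets took part in defining the sets. Over all 58 tested 430A members 34 were higher in set 1, among them the second tested one of Psma7 (0.253). Many other probe sets of the same genes went the other way. For Psmd4, the ubiquitin receptor, a probe set that did not pass the filter gave 27.2 to 57.9 in the 6 samples of set 1 and 355 to 762 in the 6 of set 2, a log2 difference of -3.21, and of 22626 probe sets only 4, itself included, differed as much in either direction. The other Psmd4 probe sets differed by 0.155 and -0.140 between the sets. Less bright probe sets of Psma6 and Psmb4 differed by -1.43 and -0.82, against 0.24 and 0.26 in the representatives of these genes. The 3′ over 5′ signal of actin, a sign of RNA quality, was 1.04 to 1.12 in set 1 and 1.14 to 1.24 in set 2 on 430A, without overlap. That of Gapdh was 0.71 to 0.874 and 0.70 to 0.796. That of the transferrin receptor leaned the other way, 2.19 to 4.29 in set 1 and 1.78 to 3.08 in set 2, with overlap. On 430B the actin values of the same samples overlapped, 1.015 to 1.102 and 1.045 to 1.193. The summed signal of 4 T cell markers was 246 to 374 in set 1 and 460 to 731 in set 2. None of these markers passed the filter on low signals, so the sums are of dim probe sets. The part of RNA quality and of T cells in these differences was not tested.

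**Figure D5:**
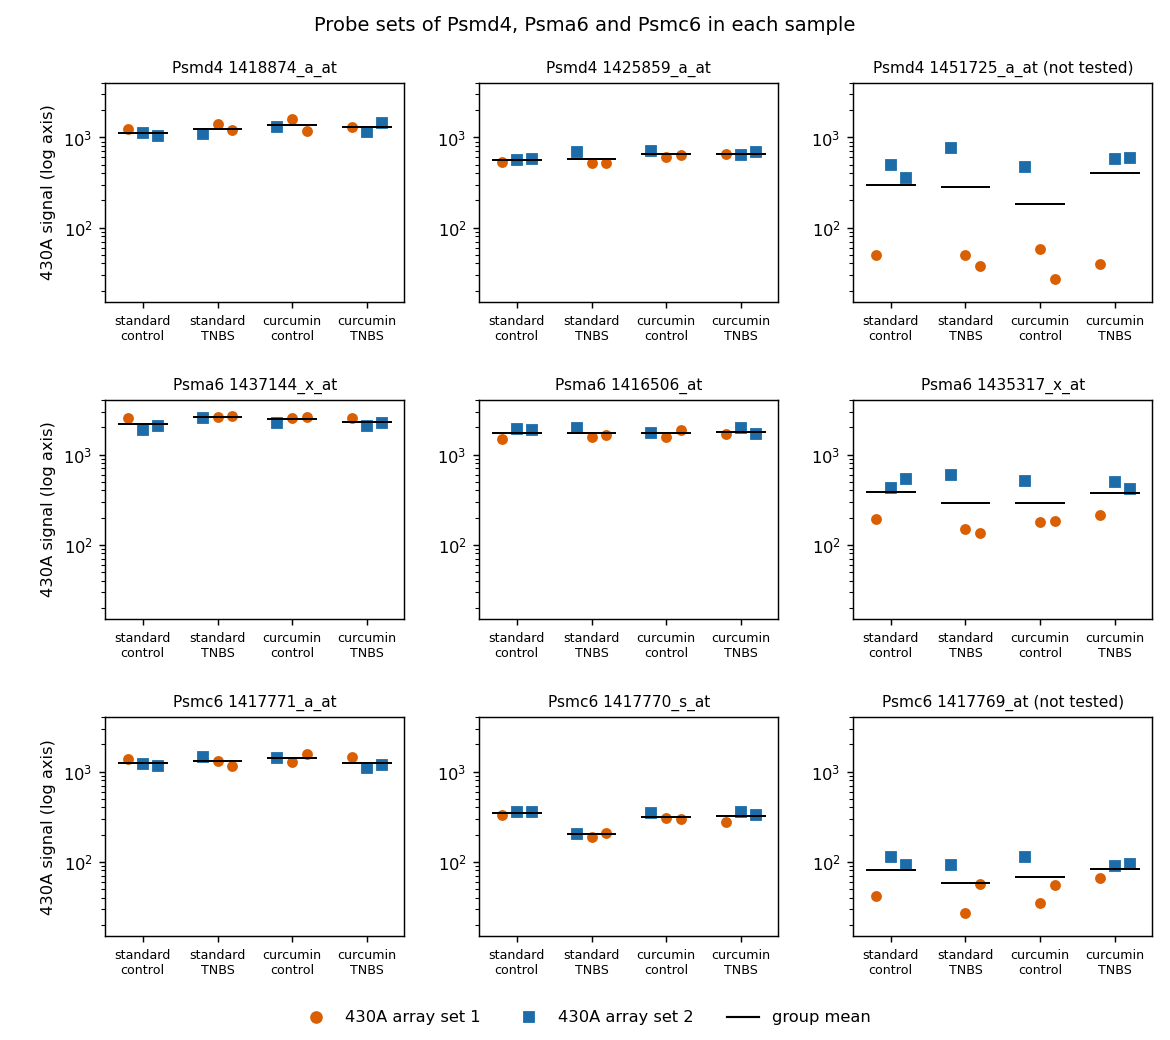
Signals on 430A (log axis) of 3 probe sets each of Psmd4, Psma6 and Psmc6, by diet and enema group. Points are samples marked by array set, and lines are group means (n = 3). A Psmd4 probe set splits by array set (27.2 to 57.9 against 355 to 762), and a Psmc6 probe set is low in the 3 samples of the standard diet with TNBS (189 to 209).

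Other genes of the pathway were taken from a list of 29, of which 20 were tested and the rest are not analysed here. None passed in limma in any of the 7 contrasts (for TNBS on the standard diet 3 of 20 had an unadjusted p under 0.05, and for curcumin under TNBS 2). All 20 were measured on 430A, where 9.32% and 10.2% of all probe sets had one. Their median difference for TNBS on the standard diet was -0.05, and 0.04 in the set-adjusted fit, so its direction is not settled. Rad23b, a shuttle that brings ubiquitinated proteins to the proteasome, gave 1097, 1003 and 972 with control enema and 1342, 1241 and 1330 with TNBS on the standard diet. The groups do not overlap, and the difference was 0.35 ± 0.11 (adjusted p = 0.303). On the curcumin diet with TNBS it gave 994, 887 and 971, or -0.45 ± 0.11 against the standard diet with TNBS (adjusted p = 0.167). Nfe2l2, which binds antioxidant response elements, gave 2632, 2578 and 2868 with control enema and 1906, 2122 and 1905 with TNBS. It differed by -0.44 ± 0.14 (adjusted p = 0.281), also without overlap. Nfe2l1, the factor named above, had group means of 1158 ± 7 (SD, n = 3) and 1094 in the same groups, and Pomp, the chaperone that matures the core, of 1521 ± 190 and 1659. Of the interferon-induced counterparts, Psmb8, Psmb9, Psmb10 and Psme1 were tested and none passed for TNBS on the standard diet, where their median difference was 0.30, and 0.17 in the set-adjusted fit (0 of 4 at an unadjusted p under 0.05, against 9.32% of all on 430A). Psmb8 gave 487, 374 and 437 with control enema and 554, 546 and 535 with TNBS.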

How the data were processed

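Colon RNA of 12 samples was measured on 24 arrays. The deposited values are linear intensity signals. GCOS is the tool named in the submitters' processing notes. Without control probe sets the 2% trimmed mean was 497.8 to 498.3 over the 430A arrays and 496.7 to 498.2 over the 430B arrays, so the authors had scaled them, and nothing further was done before log2. Gene names came from the platform annotation: 1 symbol for 20380 of 22626 probe sets on 430A and 14661 of 22511 on 430B, several for 691 and 245, none for 1555 and 7605.

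A pseudocount of 16 was added before log2. Probe sets above the 40th percentile of mean log2 signal (13575 and 13506) were fitted in limma 3.58.1 (R 4.3.3; lmFit, eBayes with an intensity trend) with 4 group means, all 12 arrays and each array type alone (8 residual degrees of freedom). P-values are two-sided, with Benjamini-Hochberg adjustment over all tested probe sets of an array type and a threshold of 0.05. The fit was tested on simulated data. Differences are ± SE and intervals are 95%.

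Named genes are those past the threshold, the 4 highest and 4 lowest per single-factor contrast, and members named for their role: catalytic subunits, ATPases, scaffolds, Psmd4, Psmd14, Psmf1, chaperones and the 3 genes outside the common proteasome. Others, such as Psmd12 as an example without overlap, the further probe sets and the named pathway genes, were chosen after their values were seen. Members and lists were chosen with earlier results of these data known. Alternatives were pseudocounts of 1 and 64, a filter at the 60th percentile or none, centring on the median or quantile normalization, no trend, array weights, only the arrays compared, each sample left out, the array set as a term, no outlying 430B arrays, and the last 2 together, a fit added after the data were seen, as was the term with samples left out.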

Additional observations from a re-analysis of the deposited data

How the results depend on the processing

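The count of member probe sets past the threshold was 0 for TNBS on the standard diet. It was 1 after a term for the array set, with array weights, or with that term and without the outlying 430B arrays. Over all probe sets 0.827% passed there with array weights, and 0.236% with the term and without those arrays. For curcumin under TNBS the count of members was 1. It was 0 without an eBayes trend, with only the 6 arrays compared, after quantile normalization, and without the 2 outlying 430B arrays, whether or not the term was added. Array weights gave 7 calls there, 2 for TNBS on curcumin, 5 for the interaction and 1 for the diet average, where 17.6%, 11.0%, 9.34% and 2.3% of all probe sets passed. The 7 were Psma7, Psmd12, the Psma6 representative and its less bright probe set, the dimmer Psmc6, and Psmb5 and Psmc5 on 430B. No result reversed among the called values, and 147 of the values of single genes kept their side of the threshold, 10 lost it and 9 gained it. With samples left out the counts ran from 0 to 3 for TNBS on curcumin (3 without curcumin-diet TNBS replicate 1). They ran from 0 to 2 for curcumin under TNBS and for the interaction. The shares of all probe sets that passed in these runs are not given here. These counts therefore have no background and say nothing particular about the members.

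The core median for curcumin under control enema was 0.22 and for the interaction -0.38 with array weights, and the latter -0.16 over the mean of each gene's probe sets. The regulatory median was 0.19 for curcumin under control enema over the base alone and -0.33 for the interaction with array weights. Core minus regulatory in the interaction was -0.016 after that term, with or without the outlying arrays, -0.0038 after quantile normalization and 0.0061 with the mean of probe sets, so its direction is not settled. With samples left out, the core median ran from 0.079 to 0.29 for TNBS on the standard diet and 0.088 to 0.25 for curcumin under control enema, and the regulatory median from -0.0018 to 0.18 for the latter. Core minus regulatory ran from 0.0065 to 0.10 for TNBS on the standard diet, -0.010 to 0.11 for curcumin under control enema, -0.13 to 0.035 for curcumin under TNBS and -0.16 to -0.044 for the interaction. Except where an alternative drops samples or genes, the cause was not tested. No paired analysis was possible because the sample numbers in the labels run from 1 to 12 and no group shares one with another. The limits are 3 samples a group from pooled mice, array sets spread unevenly over the groups, and 1 signal per probe set.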
